A study of Homo sapiens with 6 samples.

Results

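Transcript levels of 4 neuroendocrine genes, NCAM1, SCG2, CHGA and NMB, were followed in NCI-H460 cells in which CPT1 was targeted with CRISPR interference. NCI-H460 is an established human line of large cell lung cancer. The genes were chosen by symbol, as neural adhesion, secretory granule and neuropeptide genes, and make up 4 of the 51447 distinct names in the table. They were proposed with results of these data known, so their levels and differences are given as a description, with no p-value. All 4 had a mean of at least 1 FPKM (fragments of a gene, scaled to its transcript length and to the mapped fragments of the library) and so were among the 8887 genes fitted.

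All cells were infected with a lentiviral vector carrying the repressor fusion KRAB-dSpCas9 and a guide, with puromycin selection (2 μg/ml) starting 48 h later. The control group, sgNTG, carried a nontargeting guide, and the groups sg1 and sg2 each carried a different guide against CPT1, with 2 libraries per group and 6 in all. The CPT1 enzymes, carnitine palmitoyltransferases of the outer mitochondrial membrane, commit long-chain fatty acids to oxidation. Their genes were not analysed here, and how far each guide lowered them is not known from these values. Nothing in the labels tells separate cultures from repeat libraries of 1 culture, so the spread within a group, and any p-value, may be technical. The summed FPKM of a library ranged from 251704 to 260500, and sequencing depth is unknown.

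Neuroendocrine cells store peptide hormones and transmitters in dense-core granules and release them on stimulation. Granins such as chromogranin A (CHGA) and secretogranin II (SCG2) are abundant proteins of these granules and are themselves cut into active peptides. NCAM1, also called CD56, and chromogranin A are used in pathology to recognise neuroendocrine differentiation in lung tumours, and bombesin-like peptides, the family of neuromedin B (NMB), are known products and growth factors of lung tumours.

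The 4 genes did not move together. With sg2, NCAM1 and SCG2 stood above both other groups and CHGA and NMB stood below both. With sg1, NCAM1 and SCG2 stood below the control, while CHGA overlapped with it and NMB lay slightly above it. The ratio of the sg2 mean to the sg1 mean in FPKM was 1.30 for NCAM1, 1.24 for SCG2, 0.76 for CHGA and 0.57 for NMB.

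**Figure D1:**
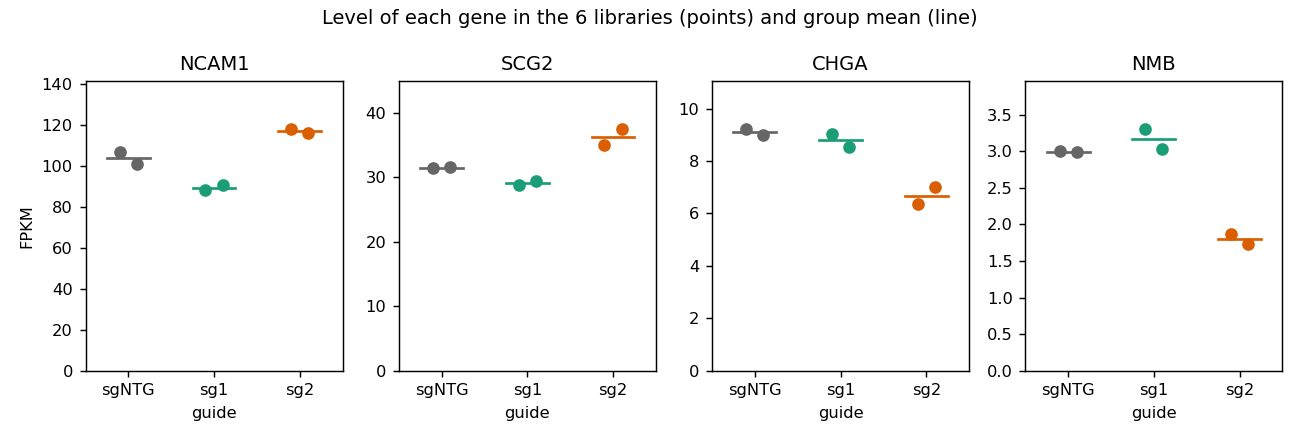
FPKM of NCAM1, SCG2, CHGA and NMB (vertical axes, each from 0) by guide, with a point per library and a line at the mean of the 2 libraries. The sg2 libraries are the highest of the 6 for NCAM1 and SCG2 and the lowest for CHGA and NMB.

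NCAM1 encodes a neural cell adhesion molecule of the immunoglobulin superfamily, which binds to itself on neighbouring cells. It lies on chromosome 11 (112961247 to 113278436, plus strand, GENCODE 29, hg38), with 30 annotated transcripts, of which the longest has 21 exons. It measured 107 and 101 FPKM in the control libraries, 88.3 and 90.8 in those of sg1 and 118 and 116 in those of sg2. The groups did not overlap, and the order of their means was sg1, sgNTG, sg2. The log2 difference was -0.21 (SE 0.0416) for sg1 against sgNTG, 0.17 (SE 0.0416) for sg2 against sgNTG and 0.38 (SE 0.0416) for sg2 against sg1, on the log2(FPKM + 1) scale used throughout. Libraries of a group differed by 1.52% to 6.23% of their mean. NCAM1 was the most abundant of the 4 genes, with 96.3% of the tested genes below it. The annotation places antisense transcripts across its first and last parts, NCAM1-AS1 among them, and the strand setting of the counting is not given in the sources used here, so reads of the opposite strands cannot be told apart.

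SCG2 encodes secretogranin II, the granin from which the peptide secretoneurin is cut. It lies on chromosome 2 (223596940 to 223602503, minus strand), and its longest transcript has 2 exons. It measured 31.4 and 31.5 FPKM in the control libraries, 28.8 and 29.4 in those of sg1 and 35.0 and 37.4 in those of sg2. As for NCAM1, no group overlapped with another, sg1 was lowest and sg2 highest. The log2 difference was -0.11 (SE 0.0482) for sg1 against sgNTG, 0.20 (SE 0.0482) for sg2 against sgNTG and 0.31 (SE 0.0482) for sg2 against sg1. The step from the control to sg1 was the smallest of these differences relative to its error, with a ratio of means of 0.924.

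CHGA encodes chromogranin A, a granin that helps to form dense-core granules and is the precursor of peptides such as vasostatin and pancreastatin. It lies on chromosome 14 (92923080 to 92935293, plus strand), and its longest transcript has 8 exons. It measured 9.21 and 9.0 FPKM in the control libraries, 9.03 and 8.54 in those of sg1 and 6.35 and 7.0 in those of sg2. The sg1 and sgNTG libraries overlapped, and both sg2 libraries were below all others. The log2 difference was -0.05 (SE 0.0698) for sg1 against sgNTG, -0.40 (SE 0.0698) for sg2 against sgNTG and -0.35 (SE 0.0698) for sg2 against sg1.

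NMB encodes the precursor of neuromedin B, a bombesin-like peptide that acts through the receptor NMBR. It lies on chromosome 15 (84655129 to 84658563, minus strand), and its longest transcript has 3 exons. It measured 3.0 and 2.99 FPKM in the control libraries, 3.3 and 3.03 in those of sg1 and 1.87 and 1.73 in those of sg2. Both sg2 libraries were well below the other 4, while the step from sgNTG to the lower sg1 library was smaller than the gap between the sg1 libraries. The log2 difference was 0.06 (SE 0.0885) for sg1 against sgNTG, -0.51 (SE 0.0885) for sg2 against sgNTG and -0.57 (SE 0.0885) for sg2 against sg1. NMB was the least abundant of the 4 genes, with 25.8% of tested genes below it, and the log2(FPKM + 1) scale understates its change; with a pseudocount of 0.1 the difference between the guides was -0.78.

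**Figure D2:**
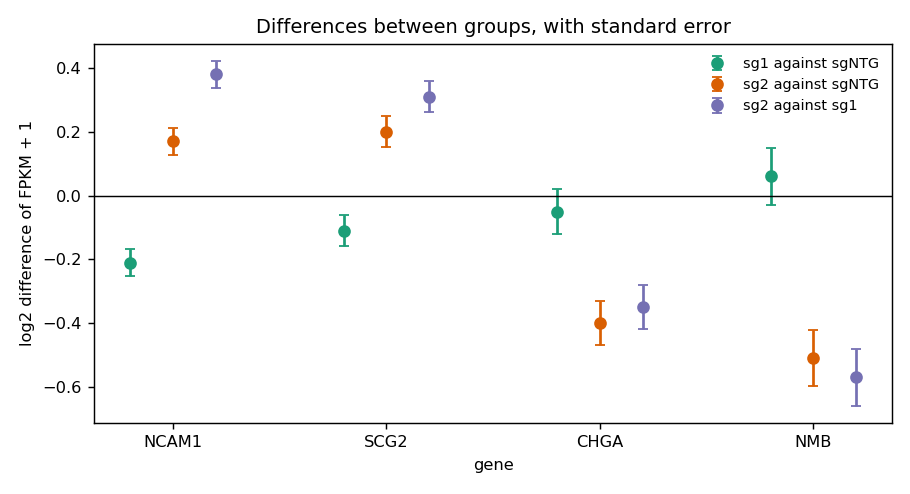
Log2 differences of FPKM + 1 (vertical axis) for each gene in 3 comparisons, with bars of 1 standard error from the fit over all tested genes. The sg2 points lie above 0 for NCAM1 and SCG2 and below 0 for CHGA and NMB, while the sg1 points for CHGA and NMB lie within 1 standard error of 0.

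Where the guides were averaged against sgNTG, the opposite signs of NCAM1 and SCG2 with each guide left small means, at a log2 difference of -0.02 (SE 0.036) for NCAM1 and 0.04 (SE 0.0417) for SCG2. The averages were -0.22 (SE 0.0604) for CHGA and -0.23 (SE 0.0766) for NMB, where sg1 alone gave -0.05 and 0.06. In limma's fit across all tested genes, none of the 4 passed the threshold of an adjusted p of 0.05 with sg1 (0.0113% of tested genes passed), with sg2 (0.0225%) or with both guides (0.0113%). At an unadjusted p below 0.05 there were 1, 4 and 2 of them, where 9.92%, 9.61% and 6.3% of tested genes lay, and nothing is read from these counts either. Between the guides, 3 of the 4 passed, NCAM1 and SCG2 higher with sg2 (0.518% of tested genes were) and NMB lower (0.776%), against 1.29% in either direction. The genes were put forward with that comparison in view, so nothing is read from the count. The SCG2 and NMB calls, and the NCAM1 call, were each lost when any sg1 or sg2 library was left out, and only NCAM1 was called without sgNTG replicate 1 or without sgNTG replicate 2.

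Libraries of the guides did not overlap for any of the 4 genes, which was also the case for 48.6% of all tested genes. Against sgNTG the libraries did not overlap in 3 of 4 with sg1 and in 4 of 4 with sg2, each against 41.1% of tested genes. In NCAM1 and SCG2 both control libraries lay between the guides with sg2 highest, an order seen in 4.24% of tested genes, and in NMB they lay between them with sg1 highest, as in 4.13% (8.37% for either order). CHGA was the member without such an order.

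Ratios of these genes within a library restate the same values in a form that cancels the scaling between libraries. SCG2 exceeded CHGA 3.41-fold and 3.50-fold in FPKM with sgNTG, 3.19-fold and 3.44-fold with sg1, and 5.51-fold and 5.34-fold with sg2. The sg2 libraries stood apart, and sg1 overlapped with the control. For NCAM1 to NMB the control libraries had ratios of 35.7 and 33.7, those of sg1 26.8 and 30.0, and those of sg2 62.9 and 66.9, and no group overlapped with another. Of the pairs that differed in the same direction, the ratio of NCAM1 to SCG2 ranged from 3.07 to 3.41 over the 6 libraries, and sg2 overlapped with the control. The ratio of CHGA to NMB was 3.07 and 3.01 in the control libraries, 2.74 and 2.82 in those of sg1 and 3.4 and 4.04 in those of sg2, where it was highest.

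**Figure D3:**
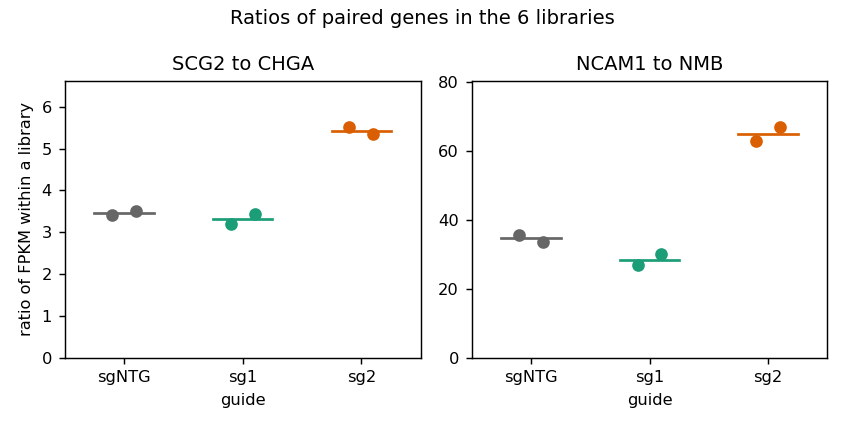
Ratios of FPKM within a library (vertical axes from 0) for SCG2 to CHGA and NCAM1 to NMB by guide, with a point per library and a line at the group mean. The sg2 libraries have a mean ratio of 5.42 for SCG2 to CHGA against 3.46 with sgNTG, and 64.9 for NCAM1 to NMB against 34.7.

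For the genes that were lower with sg2, the 30 bases from 66 to 37 bases before the RefSeq start are shown to set their promoters side by side (RefSeq, GRCh38.p14). For CHGA they are chr14:92923084-92923113 on the plus strand, and for NMB chr15:84658236-84658265 on the minus strand. Capitals mark GC boxes (GGGCGG on either strand) and the cyclic AMP response element (TGACGTCA, the same on both strands).
CHGA: GGGCGGcaccgcTGACGTCAtttccggggt
NMB: ctgctcagggcaggctCCGCCCccaggggc
The full cyclic AMP response element was found 54 to 47 bases before the CHGA start and not in the 250 bases before the NMB start, and 1.65% of 35116 promoters hold it in a window of that length. GC boxes were found once for CHGA and 3 times for NMB, and 42.6% of promoters hold 1 or more. The E-box CANNTG, the core motif of basic helix-loop-helix factors, was found once for CHGA and not for NMB, against 61.8% of promoters, and TATAAA in neither, against 10.7%. GENCODE 29 starts the CHGA gene 70 bases and the NMB gene 364 bases further upstream, so by that annotation the stretches shown lie inside the genes. Whether they lie in exons was not checked. These matches describe letters and were not tied to any level. NCAM1 and SCG2 had no entry.

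The nearest protein-coding genes listed on each side were examined for the same pattern. Genes that are not listed may lie closer, so these may not be the adjacent genes. SEC11A, a signal peptidase subunit on the same strand as NMB and 10975 bases away, measured 80.7 and 79.0 FPKM in the control libraries, 83.8 and 81.5 in those of sg1 and 76.7 and 69.9 in those of sg2 (log2 difference between the guides -0.17, limma adjusted p = 0.177). Its groups did not overlap and had the order of NMB, an order seen in 4.13% of tested genes. On the other side of NMB, 409761 bases away, GOLGA6L4 measured 0.663 to 0.9 FPKM and was below the filter. For CHGA, the Golgi protein gene GOLGA5, 83117 bases away, measured 18.1 to 19.1 FPKM (limma adjusted p = 0.963 between the guides). MOAP1, 246903 bases from CHGA, measured 96.3 to 105 FPKM (limma adjusted p = 0.604). For SCG2, the acyl-CoA synthetase gene ACSL3, 652301 bases away, measured 49.9 to 52.7 FPKM (limma adjusted p = 0.957). MRPL44, of the mitochondrial ribosome, lies 354901 bases from SCG2. It measured 19.9 and 19.4 FPKM in the control libraries, 19.6 and 19.7 in those of sg1 and 18.8 and 18.0 in those of sg2. MRPL44 was thus lowest with sg2, where SCG2 was highest (limma adjusted p = 0.411 between the guides). PLET1, 700387 bases from NCAM1, and ANKK1, 109355 bases from it, were under 0.1 FPKM in every library.

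The wider neuroendocrine and neural programme was described through 10 lists of 157 further genes. Of these, 105 were listed in the table used here, 48 had a mean of at least 1 FPKM, 40 lay between 0 and 1 FPKM and 17 were listed at 0 in every library. None of the 48 passed limma's test in any of the 4 comparisons, where 1.29% of tested genes passed between the guides. At an unadjusted p below 0.05 there were 8 between the guides (16.7%, against 17.0% of all tested genes), 5 with sg1 (10.4%, against 9.92%), 2 with sg2 (4.17%, against 9.61%) and 3 with both guides (6.25%, against 6.3%). Their median absolute log2 difference between the guides was 0.0895, against 0.0983 over all tested genes, and 24 of the 48 differences were positive. The guides' libraries did not overlap in 25 of them (52.1%), near the 48.6% of all tested genes.

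Among the other granins, PCSK1N, a granin-like inhibitor of prohormone convertase 1, measured 5.04 to 6.69 FPKM and the nerve growth factor inducible VGF 1.70 to 2.37 FPKM, with every group overlapping. Chromogranin B (CHGB), SCG3 and SCG5 were below 0.3 FPKM in each library. SCG2 was therefore the granin with the highest FPKM of those listed, followed by CHGA.

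Of the list of prohormone processing and granule release, 6 genes were tested and none was called in any comparison. The convertase PCSK2, which acts inside secretory granules, measured 5.15 and 5.33 FPKM in the control libraries, 6.97 and 6.29 in those of sg1 and 5.91 and 5.70 in those of sg2. Its groups did not overlap, and the log2 difference for sg1 against sgNTG was 0.29 (limma adjusted p = 0.327). FURIN, the convertase of the constitutive pathway, measured 57.6 to 60.6 FPKM in all 6 libraries. The protease CTSL was highly abundant, at 1353 to 1760 FPKM, and its lowest value was that of sg2 replicate 1.

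In the release machinery, 6 genes were tested and none was called, but 2 had the order of NCAM1 and SCG2 in their values. The calcium sensor SYT1 measured 12.8 and 12.3 FPKM in the control libraries, 11.2 and 11.3 in those of sg1 and 13.2 and 13.3 in those of sg2 (log2 difference between the guides 0.21, limma adjusted p = 0.128). UNC13A, which primes vesicles for release, measured 6.72 and 5.77 FPKM in the control libraries, 5.37 and 5.53 in those of sg1 and 7.29 and 7.05 in those of sg2 (0.34, limma adjusted p = 0.117). With PRNP, a cell surface partner of NCAM1 (0.15, limma adjusted p = 0.133), these were the 3 of 48 list genes whose control libraries all lay between the guides with sg2 highest. None had the reverse order, and over all tested genes 4.24% and 4.13% had these orders. The small GTPase gene RAB3B was the most abundant of the release genes, at 167 to 183 FPKM.

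Of the other peptide precursors, 5 were tested and none was called. UCN had the largest log2 difference between the guides of these, at 0.39 (limma adjusted p = 0.344). It measured 1.14 and 1.34 FPKM in the control libraries, 0.776 and 1.17 in those of sg1 and 1.22 and 1.97 in those of sg2. Neurotensin (NTS) measured 7.16 and 7.09 FPKM in the control libraries, 6.92 and 6.60 in those of sg1 and 7.45 and 5.37 in those of sg2, so that its sg2 libraries spanned all the others. Parathyroid hormone-related protein (PTHLH) measured 6.63 to 8.51 FPKM and adrenomedullin (ADM) 7.21 to 10.7 FPKM (limma adjusted p = 0.495 and 0.333 between the guides). The vasoconstrictor endothelin 1 (EDN1) measured 1.52 and 1.84 FPKM in the control libraries, 2.93 and 2.06 in those of sg1 and 2.09 and 1.76 in those of sg2 (limma adjusted p = 0.497 for sg1 against sgNTG). VIP, TAC1, NPY, SST and CCK were among the 11 listed at 0 in every library. A listed 0 was not read as absence, since all 37 mitochondrial genes were also listed at 0.

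Of the receptors for bombesin-like peptides, GRPR was at most 0.0753 FPKM and BRS3 at most 0.0165 FPKM, and NMBR was not analysed here. The lineage factors that were listed were also low. Of 19 chosen, 14 were listed and none of those reached a mean of 1 FPKM. NEUROD1, PROX1 and MYCL were among the factors not analysed here. INSM1, a zinc finger factor of neuroendocrine cells, measured 0.249 to 0.608 FPKM, and NKX2-1, a factor of lung epithelium, at most 0.0622 FPKM. The neuronal growth cone gene GAP43 measured 8.07 and 7.0 FPKM in the control libraries, 5.81 and 7.45 in those of sg1 and 9.77 and 9.69 in those of sg2 (log2 difference between the guides 0.50, limma adjusted p = 0.110). This was the lowest adjusted p of the 48 list genes between the guides. MAP2, a microtubule protein of neurons, had a log2 difference of 0.22 between the guides (limma adjusted p = 0.241).

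REST, the repressor that keeps neuronal genes off in other cells, measured 6.34 and 6.34 FPKM in the control libraries, 5.57 and 6.01 in those of sg1 and 6.46 and 6.16 in those of sg2 (log2 difference between the guides 0.11, limma adjusted p = 0.487). Its corepressor RCOR1 measured 16.0 to 19.0 FPKM (0.15, limma adjusted p = 0.284). HES1, a Notch-induced repressor of neuroendocrine fate, was abundant at 154 to 161 FPKM in all 6 libraries. None of the 13 tested genes of this list was called.

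Of the other neural adhesion genes 8 were tested, and none was called in any comparison. CNTN1, a contactin, was as abundant as NCAM1, at 101 to 104 FPKM, with a log2 difference between the guides of 0.03 (limma adjusted p = 0.749). CHL1, of the L1 family, measured 69.6 and 72.7 FPKM in the control libraries, 70.0 and 70.1 in those of sg1 and 63.5 and 65.6 in those of sg2, lower with sg2 where NCAM1 was higher (log2 difference between the guides -0.12, limma adjusted p = 0.225). L1CAM measured 5.45 to 6.59 FPKM and the NCAM1 paralogue NCAM2 had a log2 difference of -0.07 between the guides (limma adjusted p = 0.711). Of the enzymes that add polysialic acid to NCAM1, ST8SIA4 measured 10.2 to 11.1 FPKM and ST8SIA2 2.27 to 3.03 FPKM, neither called in any comparison.

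**Figure D4:**
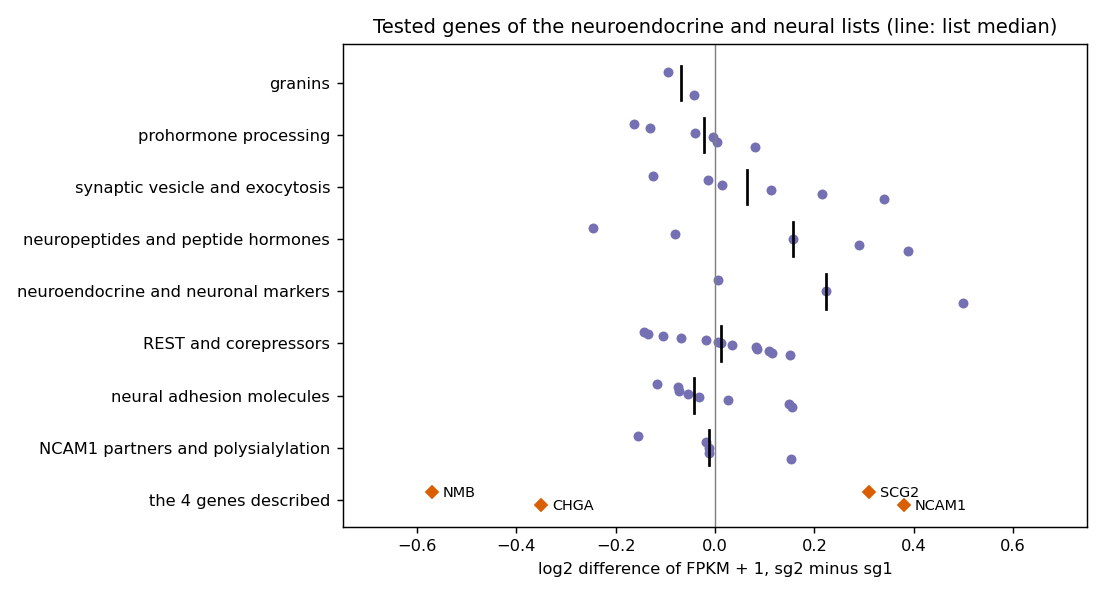
Log2 difference of FPKM + 1 for sg2 minus sg1 (horizontal axis) of the 48 tested list genes by list (circles, with a line at each list's median), and of NCAM1, SCG2, CHGA and NMB (diamonds). The circles lie on both sides of 0, from EDN1 at -0.25 to GAP43 at 0.50, and lists with no tested gene are not drawn.

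Markers of other cell types were checked beside these genes. Of the epithelial carcinoma list 3 of 8 markers were listed, and their summed level was 242 to 245 FPKM with sgNTG, 271 to 277 with sg1 and 228 to 234 with sg2. The keratin KRT18 measured 89.9 and 88.2 FPKM in the control libraries, 97.6 and 102 in those of sg1 and 90.5 and 87.4 in those of sg2. Its sg2 libraries overlapped with the control, so the lower sum with sg2 was that of KRT19. KRT19, a keratin of simple epithelia, was lower with sg2 than with sg1, at 143 and 140 against 179 and 169 FPKM, with 155 and 154 with sgNTG (log2 difference -0.30, limma adjusted p = 0.0338), and CDH1 was at most 0.105 FPKM. Of the mesenchymal list 5 of 9 were listed, with sums of 640 to 669, 646 to 654 and 687 to 709 FPKM, most of it the intermediate filament VIM. The collagen gene COL3A1 had another order, at 9.4 and 9.4 FPKM in the control libraries, 12.6 and 13.0 in those of sg1 and 10.1 and 9.85 in those of sg2 (log2 difference between the guides -0.33, limma adjusted p = 0.0517). The part of these differences in the levels of NCAM1, SCG2, CHGA and NMB was not tested. Of the alveolar and squamous list 5 of 8 were listed, with sums of at most 0.668 FPKM. Of the leukocyte list 3 of 7 were listed; NKG7, of natural killer cells, which also carry NCAM1, was at most 0.0817 FPKM and the B cell marker CD79A at most 0.313 FPKM, and CD14 made up most of the sum, at 8.26 to 11.9 FPKM.

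The genes whose values were most like those of each member over the 6 libraries are given as a description. With 6 libraries that share their groups, high correlations are common: 259 tested genes had a Pearson r of at least 0.9 with NCAM1, 255 with SCG2, 107 with CHGA and 174 with NMB. Most like NCAM1 were the monocarboxylate transporter SLC16A7 (r = 0.997), the zinc finger gene ZFP28 (0.996), the receptor TREM1 (0.996), the endothelin receptor EDNRB (0.995) and the growth factor BMP6 (0.995). Most like SCG2 were KICS2 (0.998), LINC00589 (0.994), the pseudogene SEPTIN7P3 (0.992), the microRNA-processing enzyme DICER1 (0.991) and ENSG00000223522 (0.991). Most like CHGA were ENSG00000285976 (0.993), the protocadherin PCDH7 (0.991), the vesicle coat subunit AP3B1 (0.984), the fatty acid oxidation enzyme ECHS1 (0.981) and THADA (0.981). Most like NMB were the ribosomal protein RPL23A (0.998), the pseudogene NPM1P6 (0.997), ENSG00000241494 (0.993), the cohesin subunit SMC1A (0.992) and the chaperone DNAJB12 (0.986). Between the members, r was 0.93 for NCAM1 with SCG2, 0.94 for CHGA with NMB and from -0.96 to -0.74 for the other 4 pairs.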

How the data were processed

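Libraries were prepared from bead-captured mRNA of TRIzol-extracted RNA, per the labels' protocols. The authors deposited 1 table of FPKM values for the 6 libraries; STAR, StringTie and the build hg38 are named in the submitters' processing notes, and their versions, the gene annotation and the use of strand are not stated there. Of 52807 rows, 32 that repeated another row with identical values above 0 were kept once. Values were log2(FPKM + 1), and the 8887 rows with a mean of at least 1 FPKM were fitted with limma 3.58.1 in R 4.3.3 (1 mean per group, all 6 libraries, variance trend, two-sided, Benjamini-Hochberg over all tested rows, threshold 0.05), after the fit was tested on simulated data. FPKM hold no read counts, so no count test was run and depth is unknown. FPKM are shares of a library, so a level can move with the rest of it.

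The members, the 10 gene lists and the 4 marker lists were chosen with earlier results of these data known. Named were the 4 members, list genes that passed, were of note by level or were listed at 0, the 5 genes most correlated with each member, and the nearest listed neighbours. Positions are from GENCODE 29 (hg38) and promoter sequences from RefSeq. Alternatives changed the pseudocount, filter, variance trend, scaling, replicate block and the libraries used.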

Additional observations from a re-analysis of the deposited data

Results flagged for a closer look

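For the genes named here, the change with sg2 differed from the change with sg1 past the threshold of limma's fit, as the log2 difference of sg2 minus sg1. NCAM1 (0.38), SCG2 (0.31) and NMB (-0.57) were chosen with this difference known, and it is repeated as a description. KRT19 (-0.30), a keratin of the marker lists, passed with a limma adjusted p of 0.0338. Those lists were also chosen with earlier results known. No gene was called between the guides without a filter or without a variance trend, so the KRT19 call was lost there. Genes named for their likeness to a member share that member's pattern by choice. They were TREM1 (0.55), EDNRB (0.42), BMP6 (0.31), LINC00589 (0.59), ENSG00000285976 (-1.96), RPL23A (-0.29) and ENSG00000241494 (-0.54).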

How the results depend on the processing

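For NCAM1, SCG2, CHGA and NMB the difference between the guides kept its direction under every alternative run that tested the gene, 13 each and 12 for NMB, which a filter of 5 FPKM removes. Nearly all of these could not have changed it, so nothing is read from the count. The filter, variance trend, replicate block and sgNTG libraries do not enter this difference. As the guides' libraries did not overlap, neither the pseudocount nor leaving out 1 library could reverse it. Median-of-ratios scaling could have, and gave 0.38, 0.30, -0.35 and -0.57 in the order named. A pseudocount of 0.1 gave -0.78 for NMB. Leaving out 1 library gave 0.36 to 0.40 for NCAM1, 0.26 to 0.35 for SCG2, -0.41 to -0.29 for CHGA and -0.62 to -0.52 for NMB. The mean of both guides for NCAM1 turned from -0.02 to 0.02 without sgNTG replicate 1. The calls depended more on the settings. Members were called between the guides under 6 of 13 alternatives: NCAM1, SCG2 and NMB with a pseudocount of 0.1, NCAM1, SCG2 and CHGA with a filter of 5 FPKM, NCAM1 and NMB with median-of-ratios scaling, and NCAM1 with only the 4 libraries compared or without either sgNTG replicate. Of the list genes, 0 were called under any alternative.

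Over all tested genes, 115 were called between the guides, 2 with sg2, 1 with sg1 and 1 with both. Without a filter, and likewise without a variance trend, these counts were 0. With the replicate number as a block they were 5, 0, 0 and 0, and no member was called. Deviations of equal-numbered libraries correlated at -0.028 to 0.06 across genes. The labels do not say whether equal-numbered libraries were handled together, and these correlations cannot decide it. Between the guides, 217 were called with a filter of 5 FPKM and 26 with only the libraries compared; with sg2, 0 with median-of-ratios scaling and 0 with only the libraries compared. Leaving out 1 library gave 0 to 27 between the guides, 0 to 5 with sg2, 1 to 6 with sg1 and 0 to 7 with both. The causes were not tested.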
